A study of Mus musculus with 142 samples.

Results

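The ∆A.COSN12 and ∆AOSN.COSN12 lines lack sequence at ERCE A of the mouse Dppa domain on chromosome 16 but keep C-OSN-3, the third OCT4, SOX2 and NANOG bound site of ERCE C. They comprise 8 of the 142 samples of the series, namely early-S and late-S libraries of 4 clones, and were chosen by the clone names of the deposited columns. F121-9 is a hybrid mouse embryonic stem cell line from a cross of the inbred laboratory strain-129 (genome1 in the deposited columns) with castaneus (CAST, genome2), so reads that cover strain differences give a replication timing (RT) profile for each allele. All cells were grown in 2i and LIF, labelled with BrdU for 2 h and sorted into early and late S phase. RT is the log2 ratio of early to late reads in 50 kb windows, and a higher value means earlier replication.

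In the ∆A.COSN12 clones A3 and D6, CRISPR deletions on the genome1 allele removed the whole of ERCE A together with C-OSN-1 and C-OSN-2. In the ∆AOSN.COSN12 clones F3 and G2, the genome1 allele lost only A-OSN-1 within ERCE A, again with C-OSN-1 and C-OSN-2. The CAST allele of each clone was wild type and served as the control (CON) of the deletion allele (DEL), so ∆RT is DEL minus CON of the same cells. All 4 clones kept ERCE B, and each line is a clone, so n counts clones. Because the deletion lay on genome1 in every clone, strain and deletion cannot be told apart in ∆RT itself. The nearest reference is ∆COSN12 (clones B6, C6 and D3), which carries the same C-OSN-1 and C-OSN-2 deletions on genome1 with ERCE A intact. Lines that also lost C-OSN-3 were ∆COSN123 (clone A10, the mean of 4 cultures), ∆A.COSN123 (clones B7, C9, D8 and H10) and ∆AOSN.COSN123 (clones A6 and B6). By the paper's account only 1 ∆COSN123 clone was recovered, and the A and A-OSN-1 deletions were made in that line. The clones without C-OSN-3 thus share a parent, and its traits cannot be told apart from the loss of C-OSN-3.

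Early replication control elements (ERCEs) are stretches of DNA that a domain needs to replicate early in S phase. Those of the Dppa domain carry sites bound by OCT4, SOX2 and NANOG, the transcription factors that hold embryonic stem cells in the pluripotent state. Such a domain replicates early in stem cells between late-replicating neighbours, and its RT profile has the form of a peak.

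The guide pairs define what each clone lost, and they are shown because the comparison rests on the different lengths cut out of ERCE A. Each guide matched chromosome 16 of the mm10 build exactly 1 time. The protospacer is in lower case and the PAM in capitals.

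A-G1: gggttaatgtgactgggcagTGG

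A-G2: gtgcacctttaaccagctgcAGG

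A-OSN-1-G1: cactgtagctgtcaccaaagAGG

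A-OSN-1-G2: aaagggaacctagttgcctaAGG

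C-OSN-2-G1: agagtttgtagaatgctccgGGG

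C-OSN-2-G2: acaagcatggtagggcctaaAGG

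C-OSN-1-G1: gagtaactcaggcaaaacgtTGG

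C-OSN-1-G2: ggaccggccaacctcccttaAGG

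Taking each cut at 3 bases from the PAM, the A pair removes 3619 bp at chr16:48308248-48311866. This interval lies inside Dppa2, starts 4340 bp downstream of the annotated start of the gene and overlaps an exon. The paper places an active Dppa2 transcription start site, also bound by OCT4, SOX2 and NANOG, within ERCE A. By its account the full deletion removes that start site as well as A-OSN-1. The A-OSN-1 pair removes 662 bp at chr16:48308688-48309349, all of it intronic. The full deletion therefore takes a further 440 bp on the left and 2517 bp on the right, and the Dppa2 exon sequence lies in the right part. C-OSN-2 (539 bp, chr16:48608216-48608754) and C-OSN-1 (1571 bp, chr16:48613172-48614742) lie in introns of Morc1. C-OSN-3, the site that stayed, spans 843 bp at chr16:48606321-48607163, also intronic in Morc1. It lies 294454 bp from ERCE A and only 1052 bp from C-OSN-2, so A and the C sites fall into different 50 kb windows while the 3 C sites share a window.

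A-OSN-1 holds the core letters of a Sox motif, CATTGT, 2 times, and both matches are shown in capitals with their flanks because the rest of ERCE A holds none on either strand.

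A-OSN-1 match at chr16:48308705-48308710: gcatcaaatctCATTGTggttgctggga

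A-OSN-1 match at chr16:48308786-48308791: ctctccagcccCATTGTttgtctttttt

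Among 662 bp tiles of chromosome 16, 37.1% held CATTGT on either strand and 8.31% held at least 2 matches. For the lengths of the rest of ERCE A, 26.5% of 440 bp tiles and 82.5% of 2517 bp tiles held a match. Of 3619 bp tiles, the length of full A, 72.5% held at least 2. C-OSN-3 held no match, C-OSN-2 held 1 and C-OSN-1 held 2, while 44.6% of 843 bp tiles held at least 1. The octamer letters of the Oct4 motif, ATGCAAAT, occurred in none of these sites, although 28.0% of 3619 bp tiles and 5.90% of 662 bp tiles held them. These are matches of letters and not measured binding.

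The profiles of the 4 clones were not equally complete. Windows without a value made up 21.6% to 26.2% of the profiles of A3, D6 and G2, but 9.11% on the DEL allele and 13.7% on the CON allele of F3, whose CON allele had no value on chromosome 11. In ∆COSN12 the range was 6.68% to 9.31%. The 5th percentile of RT lay between -1.22 and -1.10 in A3, D6 and G2 and at -1.62 and -1.45 in F3, so F3 had values at later RT. Of the 80 windows between 46.5 and 50.5 Mb, 52 had a value on both alleles of all 4 clones. Between 47.5 and 48 Mb only 1 of 10 did. The domain interval from 48.2 to 48.6 Mb was complete in every clone.

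**Figure D1:**
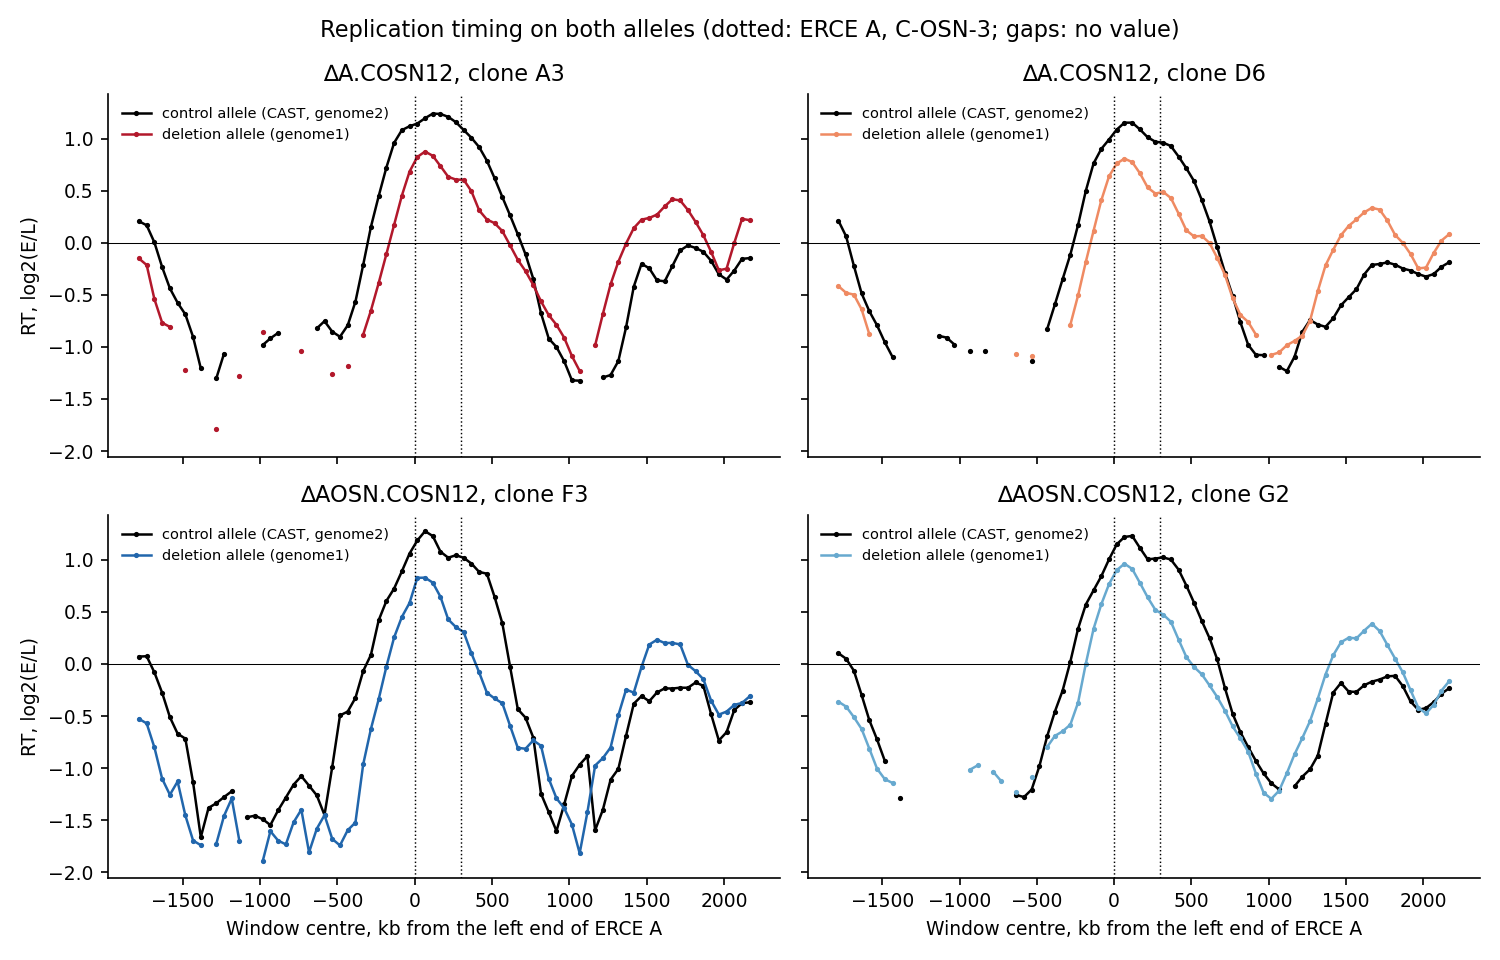
RT of both alleles in the 4 clones, with the window centre in kb from the left end of ERCE A on the x axis and log2(E/L) on the y axis. The black line is the CAST control allele, the coloured line the genome1 deletion allele, dotted lines mark ERCE A and C-OSN-3, and gaps are windows with no value. In each clone the deletion allele keeps a peak near ERCE A that is lower and narrower than the control peak, while farther right, in the stretch around the start of Ift57, the deletion allele runs above the control.

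With C-OSN-3 present, the Dppa domain still formed an early peak on the allele that had lost ERCE A or A-OSN-1, at a lower level than on the control allele. The earliest DEL window was the same in the 4 clones, chr16:48350001-48400000, next to the ERCE A window. Its RT was 0.88 in A3, 0.81 in D6, 0.83 in F3 and 0.96 in G2. The earliest CON window reached 1.24 in A3, 1.15 in D6, 1.28 in F3 and 1.23 in G2, so no DEL peak reached a CON peak. The stretch around the peak with RT above 0 was 750 kb on the DEL allele of A3 and D6, 550 kb in F3 and 700 kb in G2. On the CON alleles it was 1000 kb in A3 and G2 and 900 kb in D6 and F3. The loss of width was largest in F3, whose DEL allele crossed 0 at 300 kb to the right of the peak, against 500 kb in A3 and D6 and 400 kb in G2. Such a peak was not particular to lines with C-OSN-3. Without that site the earliest DEL RT was 0.80 and 0.67 in ∆AOSN.COSN123, 0.61 in ∆COSN123 and 0.30 to 0.53 in ∆A.COSN123. The widths above 0 were 600 and 550 kb, 500 kb, and 300 to 450 kb in the same order.

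In the window that holds ERCE A (chr16:48300001-48350000), RT on the DEL and CON alleles was 0.82 and 1.14 in A3, 0.76 and 1.09 in D6, 0.83 and 1.19 in F3, and 0.90 and 1.15 in G2. All 4 DEL values lay below all 4 CON values. ∆RT was -0.32 ± 0.003 (SD, n = 2) in ∆A.COSN12 and -0.30 ± 0.08 (SD, n = 2) in ∆AOSN.COSN12. In the window that holds the 3 C sites (chr16:48600001-48650000), DEL and CON were 0.61 and 1.08 in A3, 0.49 and 0.96 in D6, 0.31 and 1.02 in F3, and 0.47 and 1.02 in G2. The CON levels were nearly equal there, and F3 had the lowest DEL level. ∆RT in the C window was -0.48 ± 0.004 (SD, n = 2) in ∆A.COSN12 and -0.63 ± 0.12 (SD, n = 2) in ∆AOSN.COSN12.

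Both deletions replicated later than the control allele across the domain. ∆RT was below 0 in all 4 clones in 20 of the 20 windows between 48 and 49 Mb and in 27 of the 52 complete windows between 46.5 and 50.5 Mb, against 30% of 28304 complete autosomal windows. In a limma fit over 26906 autosomal windows with values in all 14 difference profiles of the 6 deletions, DEL was later than CON at an adjusted p under 0.05 in 18 of the 20 windows between 48 and 49 Mb in ∆A.COSN12. The background of such later calls over all autosomes was 11.3%. In ∆AOSN.COSN12 it was 20 of 20 windows, with a background of 16%. Across the 51 tested windows from 46.5 to 50.5 Mb, 22 were later and 15 earlier in ∆A.COSN12, and 26 were later and 10 earlier in ∆AOSN.COSN12. Over all 26906 windows 5857 were called in ∆A.COSN12, 2813 of them earlier. In ∆AOSN.COSN12 6726 were called, 2421 of them earlier. The 37 calls in ∆A.COSN12 became 20 without A3 and 22 without D6, and the 36 in ∆AOSN.COSN12 became 17 without F3. At ERCE A the limma adjusted p was 0.0109 for ∆A.COSN12 and 0.0145 for ∆AOSN.COSN12, and in the C window 0.00083 and 5.228e-05. Neighbouring windows were smoothed together by the authors, so window counts are not counts of independent events.

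Removing the whole of ERCE A and removing A-OSN-1 alone gave domain levels that could not be separated. The mean DEL RT from 48.2 to 48.6 Mb was 0.71 in A3, 0.63 in D6, 0.61 in F3 and 0.76 in G2, with the CON alleles at 1.17, 1.04, 1.10 and 1.07. The ∆AOSN.COSN12 clones enclosed the ∆A.COSN12 clones on the DEL allele. Domain ∆RT was -0.47 in A3 and -0.41 in D6, a mean of -0.44 ± 0.04 (SD, n = 2). It was -0.49 in F3 and -0.32 in G2, a mean of -0.40 ± 0.12 (SD, n = 2). The difference of -0.04 (SE 0.09) had an exact two-sided permutation p of 1, and 2 clones against 2 cannot give a p under 0.333.

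No single window separated the deletions after adjustment either. Between ∆A.COSN12 and ∆AOSN.COSN12, 0 of the 26906 windows passed the limma test, a background of 0%, while 956 had an unadjusted p under 0.05. From 46.5 to 50.5 Mb 0 of 51 windows passed and 7 had an unadjusted p under 0.05. In the ERCE A window the difference was -0.02 (SE 0.12), with a 95% interval from -0.28 to 0.24. In the C window it was 0.16, with an interval from -0.11 to 0.42.

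The 4 unadjusted windows between 48 and 49 Mb lay on both flanks of the domain. In the window at chr16:48150001-48200000, left of ERCE A, ∆A.COSN12 was lower by a limma difference of -0.30 (unadjusted p = 0.0253, adjusted p = 0.9998). In the window at chr16:48750001-48800000, right of the C sites, it was higher by 0.33 (unadjusted p = 0.0393, adjusted p = 0.9998). Without F3 the difference in the right window was 0.11, and without G2 it was 0.56. In 25 of the 52 complete windows the values of A3 and D6 did not overlap those of F3 and G2, 22 with A3 and D6 higher and 3 with A3 and D6 lower, against 32.8% of complete windows over all autosomes.

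**Figure D2:**
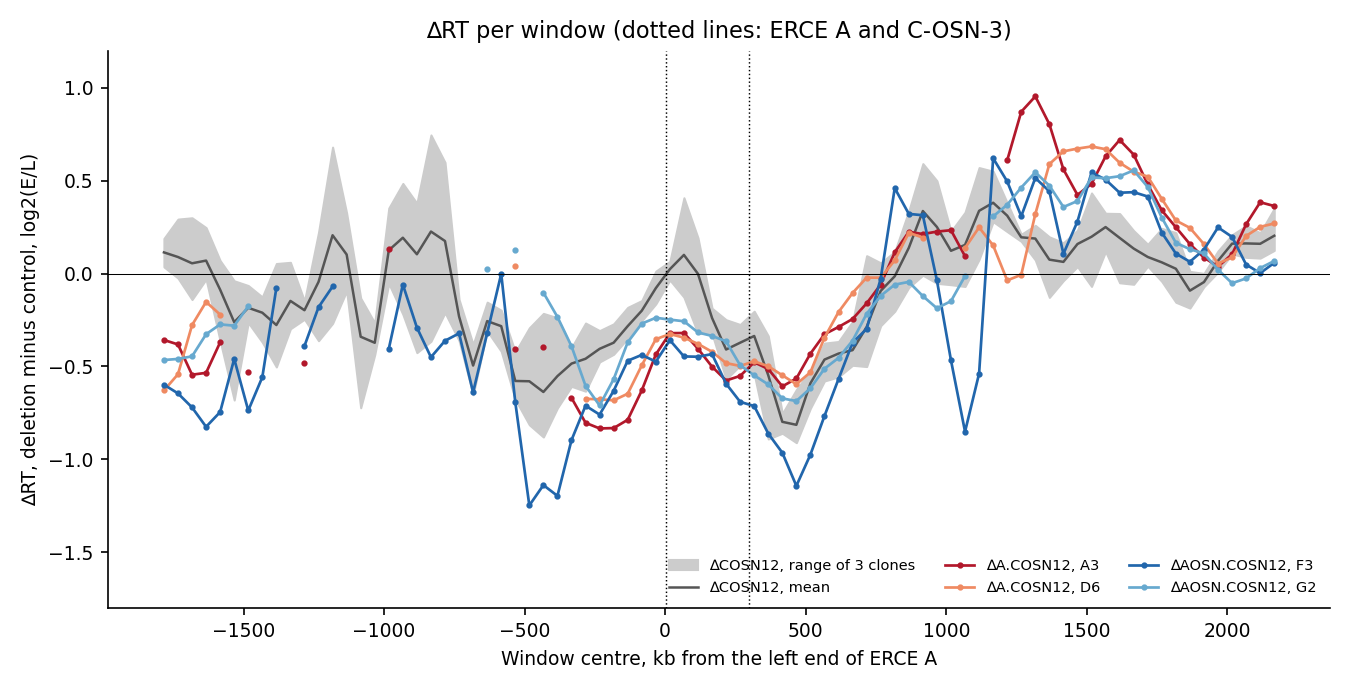
∆RT (deletion minus control allele, log2(E/L)) per 50 kb window by distance in kb from the left end of ERCE A, with a coloured line for each of the 4 clones. The grey line and band are the mean and the range of the 3 ∆COSN12 clones, and dotted lines mark ERCE A and C-OSN-3. At ERCE A the 4 clones lie between -0.36 and -0.25 while ∆COSN12 lies between -0.03 and 0.07, and right of C-OSN-3 the clone F3 falls to -1.14.

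With C-OSN-1 and C-OSN-2 deleted and ERCE A intact, ∆RT at ERCE A lay near 0 in ∆COSN12. ∆RT in the ERCE A window of ∆COSN12 was 0.07 in B6, 0.04 in C6 and -0.03 in D3, and none of these values overlapped those of the 4 clones that had lost A or A-OSN-1. The difference from ∆COSN12 was -0.35 (SE 0.11, limma adjusted p = 0.221) for ∆A.COSN12 and -0.33 (SE 0.11, limma adjusted p = 0.197) for ∆AOSN.COSN12. Both alleles differed in that window. Mean CON RT was 0.99 in ∆COSN12, 1.12 in ∆A.COSN12 and 1.17 in ∆AOSN.COSN12. DEL RT was 1.02 in B6, 1.14 in C6 and 0.88 in D3, so on the DEL allele alone G2 (0.90) lay above D3. The part of the CON levels in the ∆RT difference was not tested. Domain ∆RT was -0.15 ± 0.05 (SD, n = 3) in ∆COSN12, from -0.19 to -0.10. It lay lower by 0.29 on the log2 scale in ∆A.COSN12 (SE 0.04) and by 0.25 in ∆AOSN.COSN12 (SE 0.09), without overlap between clones in either case. Each comparison had an exact permutation p of 0.1, which is the smallest that 2 against 3 clones can give, and 0.167 after Benjamini-Hochberg adjustment over the 5 pairs of deletions compared.

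On the deletion allele alone the order of the domain levels was the same. Mean DEL RT of the domain was 0.99 in B6, 1.21 in C6 and 0.84 in D3, above the 4 values of 0.61 to 0.76. The exact permutation p was 0.2 for either deletion against ∆COSN12, with an adjusted p of 0.333. Taking the 4 clones together, a grouping chosen after the separate comparisons were seen, domain ∆RT was lower than in ∆COSN12 by 0.27 (SE 0.05) with an exact permutation p of 0.0286, the smallest that 4 against 3 clones can give. DEL RT was lower by 0.33 (SE 0.11) with the same exact p of 0.0286. Neither p was adjusted. The clones of each deletion had already been seen not to overlap ∆COSN12, so these p-values restate that separation and add no support to it.

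**Figure D3:**
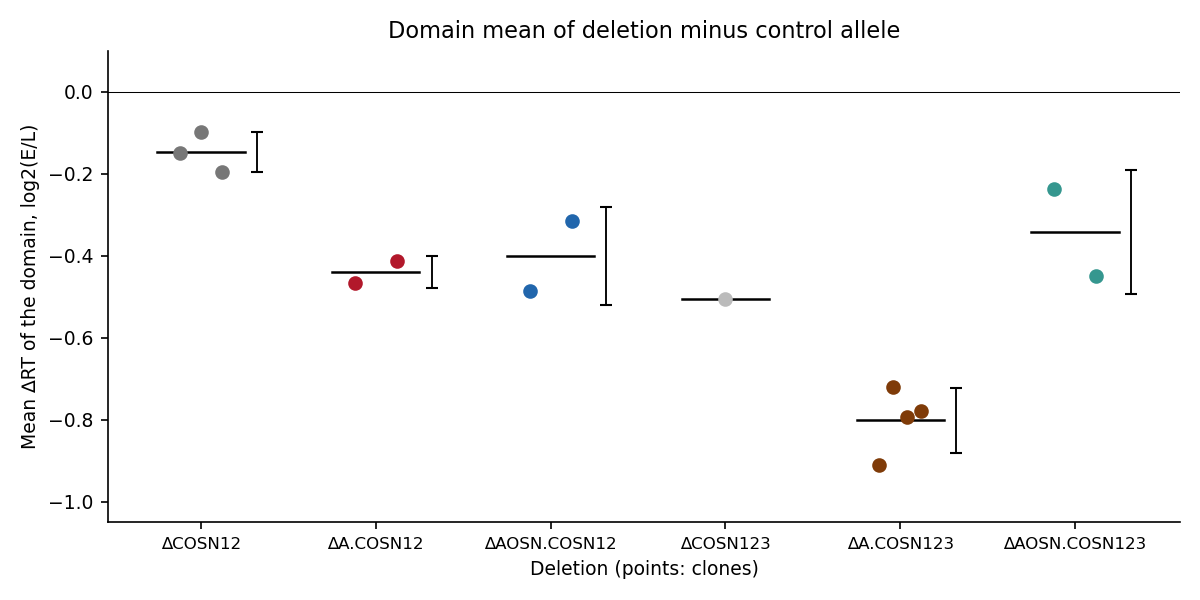
Mean ∆RT over the 400 kb from 48.2 to 48.6 Mb, log2(E/L), for the 6 deletions on the x axis, with a point for each clone, a horizontal line at the mean and a bar of 1 SD on each side where there is more than 1 clone. The 4 clones of ∆A.COSN12 and ∆AOSN.COSN12 lie between -0.49 and -0.32, below the ∆COSN12 clones (-0.19 to -0.10), and ∆A.COSN123 lies lowest (-0.91 to -0.72).

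The windowed limma comparison of ∆RT with ∆COSN12 made no call inside the domain. For ∆A.COSN12 66 windows passed over all autosomes (0.245%), 1 of them among the 51 tested from 46.5 to 50.5 Mb and 0 between 48 and 49 Mb, where 9 of 20 windows had an unadjusted p under 0.05. Over all autosomes 2921 of 26906 windows had such an unadjusted p. For ∆AOSN.COSN12 175 passed (0.65%), 2 of them among the 51 and 0 between 48 and 49 Mb, where 6 of 20 had an unadjusted p under 0.05. Over all autosomes 3647 of 26906 did. For the 4 clones together 431 passed (1.6%), 6 of the 51 and 0 between 48 and 49 Mb, where the lowest adjusted p was 0.0690, in the window next to ERCE A. The difference there was -0.44 (SE 0.12), with a 95% interval from -0.69 to -0.19. These counts over all autosomes hung on single clones. Without A3 or D6 the 66 calls became 5 and 8, and without B6 or C6 40 and 41. Without F3 the 175 calls became 5, and without C6 86. For the 4 clones together the 431 calls became 116, 144 and 109 without A3, D6 and F3, and 276 and 223 without B6 and C6. The call from 46.5 to 50.5 Mb in ∆A.COSN12 was lost without A3, D6, F3, G2, C6 or D3 in turn, and both calls in ∆AOSN.COSN12 without F3 or D3.

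On the deletion allele alone, without subtraction of CON, 28 windows were tested from 47.5 to 49.5 Mb. In ∆A.COSN12 5 of them were called against ∆COSN12, in ∆AOSN.COSN12 6 and in the 4 clones together 11, and every one of these calls was lower. The background of lower calls over 31454 autosomal windows was 1.41% for ∆A.COSN12, 3.53% for ∆AOSN.COSN12 and 5.03% for the 4 clones together. Most autosomal calls were higher, 2680 of 3123, 2229 of 3338 and 3943 of 5525 in the same order. The levels of the profiles differed too. Median DEL RT was -0.16 to -0.11 in the ∆COSN12 clones and -0.10 in F3, but 0.21 to 0.31 in A3, D6 and G2. The part of this in the calls was not tested.

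The stretches on which the clones differed from ∆COSN12 changed along the domain, as the plot of ∆RT by segment shows. The segment bounds were set after the windows had been seen, so these values are a description. In the 300 kb left of the ERCE A window, ∆RT was -0.72 in A3, -0.59 in D6, -0.58 in F3 and -0.46 in G2, while the 3 ∆COSN12 clones lay between -0.34 and -0.28. Between the A and C windows the mean was -0.45 in ∆A.COSN12 and -0.44 in ∆AOSN.COSN12, against -0.18 in ∆COSN12. In the C window the ∆COSN12 clones spread from -0.54 to -0.20 and overlapped A3 and D6 (-0.48 and -0.47) but not F3 and G2 (-0.71 and -0.55).

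Right of the C window, up to 49 Mb, the order was different. ∆RT was -0.43 in A3 and -0.40 in D6, -0.81 in F3 and -0.56 in G2, and -0.59 to -0.57 in ∆COSN12. Relative to CON, A3 and D6 were the least late there, and F3 and G2 lay on either side of the ∆COSN12 clones. DEL RT itself was 0.16 in A3 and 0.12 in D6, within the ∆COSN12 range of 0.08 to 0.24. Mean CON RT was 0.55 in ∆A.COSN12, 0.52 in ∆AOSN.COSN12 and 0.72 in ∆COSN12. The part of the CON levels in this order was not tested. In the limma fit for the window 150 kb right of the C window, ∆A.COSN12 differed from ∆COSN12 by 0.23 (adjusted p = 0.569) and ∆AOSN.COSN12 by -0.10 (adjusted p = 0.815). The lag of the C window relative to the A window, as C-window ∆RT minus A-window ∆RT, was -0.16 in A3, -0.15 in D6, -0.35 in F3 and -0.30 in G2, and -0.51 to -0.24 in ∆COSN12. Among the lines that lack C-OSN-3 it lay between -0.07 and 0.14 in the 4 ∆A.COSN123 clones, but at -0.39 and -0.26 in ∆AOSN.COSN123 and at -0.18 in ∆COSN123, within the range of the lines that keep it.

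**Figure D4:**
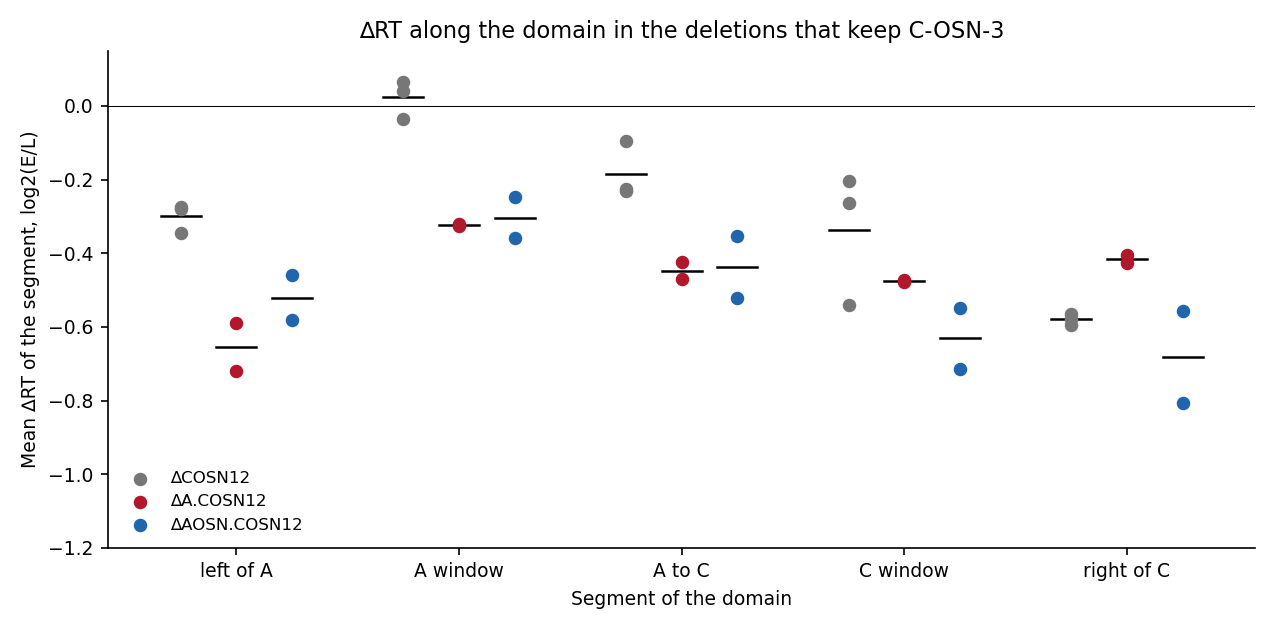
Mean ∆RT, log2(E/L), in 5 segments from left to right along the domain for the deletions that keep C-OSN-3, with a point for each clone and a line at the mean. Left of A, at the A window and from A to C, the ∆A.COSN12 and ∆AOSN.COSN12 clones lie below the ∆COSN12 clones, and right of C the ∆A.COSN12 clones lie above them. Right of C, RT on the DEL allele alone lies within the ∆COSN12 range in A3 and D6.

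Where full A was deleted, the lines without C-OSN-3 had a lower domain level than those that kept it, while with A-OSN-1 deleted the clones with and without C-OSN-3 overlapped. Domain ∆RT was -0.80 ± 0.08 (SD, n = 4) in ∆A.COSN123, with clones from -0.91 to -0.72, none overlapping A3 or D6. The difference of -0.36 (SE 0.05) had an exact permutation p of 0.0667, the smallest that 4 against 2 clones can give, and 0.167 after adjustment. The permutation takes clones as independent, but the ∆A.COSN123 clones share the ∆COSN123 parent, so the p does not measure the spread between separate losses of C-OSN-3. On the DEL allele the mean domain RT was 0.22 ± 0.06 (SD, n = 4) in ∆A.COSN123, against 0.67 ± 0.05 (SD, n = 2) in ∆A.COSN12. In ∆AOSN.COSN123 domain ∆RT was -0.24 in A6 and -0.45 in B6, a range that overlapped F3 and G2. The difference from ∆AOSN.COSN12 was 0.06 (SE 0.14, exact permutation p = 0.667, adjusted p = 0.833).

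Window by window, these comparisons gave hardly any call. Between ∆A.COSN123 and ∆A.COSN12 1 window passed limma over all autosomes (0.00372%) and 0 of 51 from 46.5 to 50.5 Mb, where 8 had an unadjusted p under 0.05. Over all autosomes 1887 of 26906 did. At ERCE A the difference was -0.50 (SE 0.11, adjusted p = 0.225). Between ∆AOSN.COSN123 and ∆AOSN.COSN12 0 windows passed (0%, with 1799 at an unadjusted p under 0.05), and the difference at ERCE A was 0.10 with a 95% interval from -0.16 to 0.35. The interaction, which asks whether full A against A-OSN-1 differs between the lines with and without C-OSN-3, passed limma in 0 windows (0%, with 871 at an unadjusted p under 0.05). At ERCE A it was -0.59 (SE 0.16), with an interval from -0.93 to -0.25, an unadjusted p of 0.00179 and an adjusted p of 1. A difference between full A and A-OSN-1 in what the loss of C-OSN-3 adds was thus not called in any window.

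The area under the ∆RT curve over 47.5 to 49.5 Mb ordered the clones in another way. It is a trapezoid area that bridges windows without a value, so windows beside a gap weigh more. The area was -11.8 in A3, -9.29 in D6, -20.3 in F3 and -10.3 in G2. It rested on 31, 29, 40 and 34 windows with values, and 3 clones were close while F3 stood apart. F3 was also the clone with the fewest missing windows, and the part of these windows in its area was not tested. Over the 27 windows with values in all 4 clones the area of the mean curves was -11.0 in ∆A.COSN12 and -13.5 in ∆AOSN.COSN12. The exact permutation p between the deletions was 0.667 (adjusted p = 0.833). Against ∆COSN12, whose clones ranged from -12.7 to -7.64, it was 0.9 for ∆A.COSN12 and 0.3 for ∆AOSN.COSN12, and the clones overlapped in both comparisons.

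Set beside the rest of the genome as a description, the mean ∆RT over 47.5 to 49.5 Mb was -0.29 in ∆A.COSN12, and 3.42% of 31413 overlapping 2 Mb regions were as low or lower. In ∆AOSN.COSN12 it was -0.40, and 2.27% of 41815 regions were as low or lower. In ∆COSN12 it was -0.24, a level that 6.00% of 44577 regions reached. The mean of ∆A.COSN12 covered 85% of the windows and those of ∆AOSN.COSN12 and ∆COSN12 100%. These means and shares therefore rest on different windows and regions. The difference between ∆A.COSN12 and ∆AOSN.COSN12 was 0.10, and 13.9% of 30872 regions had a difference at least as large in size.

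The genes of the domain followed the windows that hold their starts. Dppa2 and Dppa4, which encode partner DNA-binding proteins of pluripotent cells that activate genes of the early embryo, start just left of the earliest DEL window. In the Dppa4 start window, DEL RT was 0.68 in A3, 0.64 in D6, 0.59 in F3 and 0.77 in G2, with CON between 0.99 and 1.12. ∆RT there was -0.39 ± 0.06 in ∆A.COSN12, -0.36 ± 0.17 in ∆AOSN.COSN12 (SD, n = 2 each) and -0.08 ± 0.09 in ∆COSN12 (SD, n = 3). DEL was later than CON by limma in both A deletions (adjusted p = 0.00717 and 0.0126). The start of Dppa2 shares the ERCE A window described above.

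Morc1, which encodes an ATPase needed for transposon silencing in male germ cells, starts in the same window as the predicted gene Gm5485, next to the DEL peak. DEL RT there was 0.84 in A3, 0.77 in D6, 0.78 in F3 and 0.91 in G2. ∆RT was -0.39 ± 0.02 in ∆A.COSN12 and -0.38 ± 0.09 in ∆AOSN.COSN12 (SD, n = 2 each), both later by limma (adjusted p = 0.0201 and 0.0206). In ∆COSN12 the 3 clones disagreed on this window (0.13, 0.19 and -0.32).

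Right of ERCE C, F3 had the lowest ∆RT of the 4 clones at the starts of Trat1 and of the resistin-like genes, but not clearly so farther out. Trat1, which encodes a transmembrane adaptor of the T cell receptor, had DEL RT of 0.22 in A3, 0.12 in D6, -0.28 in F3 and 0.07 in G2, with CON between 0.72 and 0.87. ∆RT was -0.58 ± 0.02 in ∆A.COSN12 and -0.91 ± 0.32 in ∆AOSN.COSN12 (SD, n = 2 each), against -0.81 ± 0.16 in ∆COSN12 (SD, n = 3), and DEL was later than CON by limma in both A deletions (adjusted p = 0.000599 and 5.949e-06). The resistin-like genes Retnlb and Retnla, which encode secreted proteins, share a window with ∆RT of -0.43 in A3, -0.53 in D6, -0.97 in F3 and -0.62 in G2. At the third gene of that family, Retnlg, ∆RT was -0.33, -0.35, -0.77 and -0.51 in the same order. Dzip3, which encodes a ubiquitin ligase, and Cip2a, which encodes an inhibitor of protein phosphatase 2A, share a start window where ∆RT was -0.24 in A3, -0.10 in D6, -0.37 in F3 and -0.36 in G2. At Myh15, a myosin heavy chain gene farther out, ∆RT lay between -0.12 and -0.02 in the 4 clones. In each clone it was nearer to 0 than at the gene starts named before it.

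In the comparison of ∆RT, the calls against ∆COSN12 from 46.5 to 50.5 Mb lay outside the domain. At the left end of the region, from 46.5 to 46.75 Mb, ∆RT was -0.44 in A3, -0.36 in D6, -0.71 in F3 and -0.39 in G2, and 0.05 ± 0.14 (SD, n = 3) in ∆COSN12. The windows at chr16:46500001-46550000 and chr16:46550001-46600000 were lower in ∆AOSN.COSN12 than in ∆COSN12 by limma differences of -0.65 and -0.64 (adjusted p = 0.0261 and 0.0319). The mean CON level of this stretch was -0.14 in ∆A.COSN12 and -0.15 in ∆AOSN.COSN12 but -0.40 in ∆COSN12, so the wild-type alleles differed between the lines by about as much as the DEL alleles (-0.54, -0.70 and -0.35).

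In the neighbouring stretch from 49.65 to 50.05 Mb, where Ift57 starts, the sign was opposite. DEL was earlier than CON by 0.59 in A3, 0.62 in D6, 0.40 in F3 and 0.48 in G2, and by 0.15 ± 0.07 (SD, n = 3) in ∆COSN12. The lines without C-OSN-3 had the same sign, with 0.46 in ∆COSN123 and means of 0.51 in ∆A.COSN123 and 0.58 in ∆AOSN.COSN123. For this stretch the paper describes an RT difference between castaneus and musculus and variation between cells. It also gives a poor correlation with the effects of the Dppa deletions. The window at chr16:49650001-49700000 was higher in ∆A.COSN12 than in ∆COSN12 by 0.62 (limma adjusted p = 0.0414). Mean CON RT was -0.41 in ∆A.COSN12, -0.30 in ∆AOSN.COSN12 and -0.18 in ∆COSN12, so here too the wild-type alleles differed between lines. In the ERCE A window mean CON RT was 1.12, 1.17 and 0.99 in the same order, and mean DEL RT was 0.79, 0.86 and 1.02. The part that such differences between the wild-type alleles have in the comparison at ERCE A was not tested.

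A comparison on a single strain used the wild-type genome1 allele of clones that carry a deletion only on CAST (CR11.8k and CTSS, domain RT 1.02 and 0.98). Against their mean, domain RT on the DEL allele was lower by 0.29 on the log2 scale in A3, 0.37 in D6, 0.39 in F3 and 0.24 in G2. In ∆COSN12 the differences were -0.01, 0.21 and -0.16. The same level was subtracted from every clone, so the order of the clones is that of the DEL alleles given above and adds nothing to it. Right of the C window up to 49 Mb the differences were -0.27 in A3, -0.32 in D6, -0.77 in F3 and -0.42 in G2, and -0.35 to -0.19 in ∆COSN12.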

How the data were processed

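E/L Repli-seq was done on 8 libraries of the 4 clones described, of 142 in the series. The authors trimmed reads with Trim Galore and cutadapt, aligned them with Bowtie2 to an N-masked mm10 genome, assigned them to alleles by strain differences, counted them in 50 kb windows with bedtools, and deposited the log2 ratio of early to late reads, scaled, quantile normalized and loess smoothed over 300 kb. Smoothing ties neighbouring windows, and a late window can lack a value. Counts were not used here, so depth is unknown. All 138 allele columns of the 49264 windows were matched to samples by name.

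∆RT was the deletion allele minus the control allele of a clone. limma 3.58.1 in R 4.3.3 was fitted to 14 difference profiles of 6 deletions over the 26906 autosomal windows with a value in each, with Benjamini-Hochberg adjustment over all windows and a threshold of 0.05. Its test was checked on simulated data. Means and areas were compared by exact two-sided permutation over clones in Python 3.11.15. The pair of clones per deletion limits the precision, and p-values measure the spread between clones. The 4 cultures of the ∆COSN123 clone were averaged to 1, and clone F4 of ∆AOSN.COSN123 was not analysed here. Named genes were protein-coding genes with a start between 47.5 and 49.5 Mb, with others outside given only where a result turned on them. Members, intervals and gene rule were chosen with earlier results of these data known.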

Additional observations from a re-analysis of the deposited data

How the results depend on the processing

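Depth is unknown, and the clone number limits precision. Of 66 areas and domain means under other settings 60 moved by less than the spread between clones, of 248 counts of windows 173 stayed within 1.5 times, and of 363 differences in the A window, the C window and the window 150 kb right of it 347 kept direction and side of the threshold. The domain mean of ∆A.COSN12 was -0.39 with the CAST alleles of all clones as control, -0.33 with wild-type genome1 alleles and -0.54 over the interval widened by 4 windows on each side, and the last setting gave -0.54 for ∆AOSN.COSN12. The area of ∆A.COSN12, -10.9, was -8.56 with all CAST alleles and -3.97 with wild-type genome1 alleles as control.

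Calls in the comparisons with ∆COSN12 depended on the setting. In the order ∆A.COSN12, ∆AOSN.COSN12 and the 4 clones together, calls from 46.5 to 50.5 Mb were 0, 0 and 1 with only the 3 deletions that keep C-OSN-3, 9, 9 and 18 on the deletion allele alone, and 0, 1 and 1 with every 6th window. Over all autosomes they were 16, 22 and 100, then 3123, 3338 and 5525, then 5, 15 and 50. With windows that had a value in at least 1 clone of each deletion, a setting chosen after seeing the data, calls from 46.5 to 50.5 Mb were 0, 1 and 3, and over all autosomes 27 for ∆A.COSN12 and 112 for ∆AOSN.COSN12. It gave 2 calls over all autosomes between ∆A.COSN12 and ∆AOSN.COSN12. With the 4 cultures as samples, calls were 0 for ∆A.COSN12 and 3 for the 4 clones together, and 34 over all autosomes for ∆A.COSN12. After centring on chromosome 16 they were 3 for ∆A.COSN12 and 1 for ∆AOSN.COSN12, and 114 over all autosomes for ∆AOSN.COSN12.

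With every 6th window, DEL against CON gave 7 calls from 46.5 to 50.5 Mb in either deletion, with 998 over all autosomes in ∆A.COSN12 and 1126 in ∆AOSN.COSN12, and ∆A.COSN123 against ∆A.COSN12 gave 0. This setting tested only 4484 windows over all autosomes and 10 from 46.5 to 50.5 Mb, and no other cause was tested. On the deletion allele alone, ∆A.COSN123 against ∆A.COSN12 gave 11 calls from 46.5 to 50.5 Mb and 993 over all autosomes, and ∆AOSN.COSN123 against ∆AOSN.COSN12 gave 287 over all autosomes. For the other settings that moved a count, the cause was not tested.

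Signs turned in 9 window differences. The ERCE A difference between ∆A.COSN12 and ∆AOSN.COSN12 ranged from -0.075 without F3 to 0.035 without G2. In the window right of C the difference from ∆COSN12 was -0.015 for ∆A.COSN12 and -0.15 for the 4 clones together on the deletion allele alone, 0.13 for ∆AOSN.COSN12 without F3 and -0.33 without G2, and 0.18 for the 4 clones without F3 and -0.047 without G2. ∆AOSN.COSN123 against ∆AOSN.COSN12 on the deletion allele alone was -0.17 in the A window, -0.12 in the C window and -0.11 right of it, and there it was -0.076 without F3 and 0.38 without G2.

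Leaving out 1 clone at a time, the area ranged from -11.8 to -9.29 in ∆A.COSN12 and from -20.3 to -10.3 in ∆AOSN.COSN12, and their difference from -0.54, without F3, to 9.39. Domain ∆RT ranged from -0.47 to -0.41 and from -0.49 to -0.32, with the difference from -0.12 to 0.05. Calls from 46.5 to 50.5 Mb ranged from 0 to 0 between the A deletions, 0 to 1 and 0 to 2 for ∆A.COSN12 and ∆AOSN.COSN12 against ∆COSN12, 1 to 5 for the 4 clones, 20 to 37 and 17 to 38 against CON, and 0 to 0 in the comparisons over C-OSN-3. Over all autosomes they ranged from 0 to 4, 5 to 51, 5 to 186 (the 5 without F3), 109 to 458, 2205 to 6236, 2709 to 7094, 1 to 3 (full A), 0 to 12 (A-OSN-1) and 0 to 1 (interaction). A lone remaining clone was assumed to vary like the other deletions. No paired analysis was possible because the labels give the compared deletions no shared replicate numbers, and DEL and CON were already paired within a clone.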
